A study of Mus musculus with 4 samples.

Results

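The piRNA pathway and chromatoid body genes are 32 genes whose products make, trim, load or scaffold the small RNAs that PIWI proteins carry in male germ cells, together with a few genes of the related microRNA pathway. They were taken by symbol from the 22073 genes of the deposited table, and 32 of 32 were found there. Of these, 29 had a mean of at least 1 FPKM (fragments scaled to transcript length and to the number of mapped fragments) over the 4 libraries and entered the comparison, and Ago2, Nanos1 and Piwil4 did not. RNA came from the right testis of sexually mature male KM mice, an outbred strain. In the hemicastrated mice the left testis had been taken out before puberty, and the control mice underwent a sham operation at the same time. The labels list 2 libraries per group, although the protocol mentions 3 mice in each. Whether a library holds RNA of 1 mouse is not known from the labels. The 4 libraries are treated here as 4 mice. The comparison asks whether the testis that remains after hemicastration holds other levels of these transcripts in adulthood than a testis whose partner stayed in place.

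PIWI proteins bind piRNAs, small RNAs cut from long single-stranded precursors, and use them to silence transposons and to cleave other RNAs in the germ line. Precursor cutting takes place at the mitochondrial surface, and Tudor domain proteins hold the PIWI proteins through their methylated arginines. In mouse, the product of Piwil4 acts around birth, that of Piwil2 from the fetal stage to round spermatids, and that of Piwil1 from the pachytene stage of meiosis onwards. The chromatoid body is the cytoplasmic granule of round spermatids in which PIWI proteins, Tudor proteins and the helicase DDX4 gather.

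Of these genes 23 averaged 10 FPKM or more in the adult testis. The 29 tested genes did not differ between the groups by more than the larger of the differences between libraries of a group. None of them passed the threshold of an adjusted p under 0.05 (limma on log2(FPKM + 1), Benjamini-Hochberg over all 11343 tested genes), where 1.3% of all tested genes did, and 0 had an unadjusted p under 0.05, against 10.5% of all tested genes. The adjusted p of the members ran from 0.560 for Gtsf2 to 0.992 for Stk31. The libraries of the groups did not overlap for 5 of the 29 members, or 17.2% of them, against 41.2% of all tested genes. The difference between the group means was smaller than the larger of the differences within a group in 29 of 29 members, while it was above both within-group differences in 28.5% of all tested genes. The median log2 fold change, hemicastrated minus control, was -0.03 over the members and -0.03 over all tested genes, with 13 members above 0 and 16 below. Over all tested genes, 43.4% were above 0. The members had been chosen with earlier results of these data known, so these shares are a description of the list only.

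The intervals show which differences these libraries leave possible. For 28 of 29 members the 95% limma interval of the log2 fold change lay inside 1.5-fold in either direction on the log2(FPKM + 1) scale, and 29 of 29 intervals held 0. Ago3 was the exception, with an interval from -0.99 to 0.23. That scale compresses genes of a few FPKM. With a pseudocount of 0.1 in place of 1, 24 of 29 intervals lay inside 1.5-fold, and those of Ago3, Mov10, Asz1, Dicer1 and Exd1 did not. Without control 2, with fewer libraries, 21 of 29 did, and those of Ago3, Asz1, Exd1, Gtsf2, Mov10, Rnf17, Tdrd1 and Tdrd12 did not. The number not inside was 4 without hemicastrated 1, 4 without hemicastrated 2 and 2 without control 1.

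**Figure D1:**
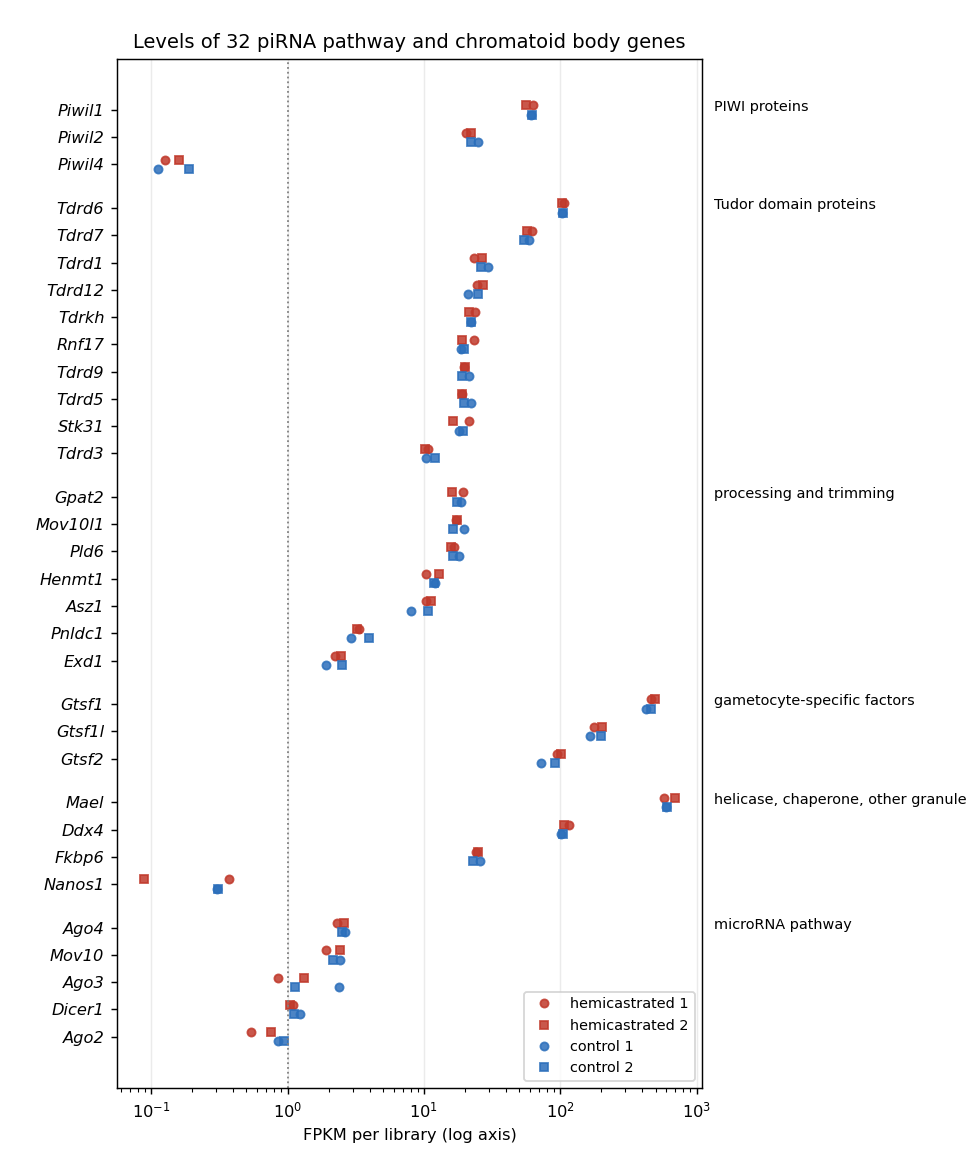
FPKM of each of the 32 genes (log axis) in the 2 hemicastrated libraries (red, upper points) and the 2 control libraries (blue, lower points), grouped by role; the dotted line marks 1 FPKM. The points of a gene lie close together for most genes. Single values run from 0.0880 FPKM for Nanos1 to 699 FPKM for Mael, both in hemicastrated 2.

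The 4 libraries had summed FPKM of 343105 and 353135 in the hemicastrated mice and 346632 and 344316 in the controls. Read depth is unknown. Markers of testis cells were present, with the spermatid gene Prm1 at 5732 and 6458 FPKM in the hemicastrated mice and 5802 and 5995 FPKM in the controls. Over all tested genes 12 were called higher and 135 lower after hemicastration (0.106% and 1.19%), and the first principal component, with 66.7% of the variance, separated the groups. Of 8 epididymis genes 4 were tested and 2 fell, Crisp1 and Adam7. The summed FPKM of the list was 23.0 and 24.0 in the hemicastrated mice against 594 and 834 in the controls, where most of it came from Crisp1, and without Crisp1 it was 22.9 and 23.9 in the hemicastrated mice against 48.98 and 47.5 in the controls. Lcn5 and Lcn8 were listed at 0 in all libraries, and Adam7 was listed at 0 in both hemicastrated libraries. Of 8 smooth muscle genes 8 were tested and 5 fell (Cnn1, Tagln, Tpm2, Acta2 and Des). The summed FPKM of all 8 was 231 and 260 in the hemicastrated mice against 350 and 311 in the controls. Actg2, which was not called, held most of that sum. It was at 183 and 209 FPKM in the hemicastrated mice and 219 and 213 FPKM in the controls. Of the genes that fell, Acta2 was at 19.4 and 17.1 FPKM in the hemicastrated mice against 53.0 and 40.2 FPKM in the controls. In the other somatic lists limma called 0 genes. Summed FPKM of 12 Sertoli cell genes was 693 and 645 in the hemicastrated mice against 569 and 585 in the controls. Of these 10 were tested, with 7 above 0, 3 below (Gata4, Cldn11 and Clu) and a median log2 fold change of 0.23. An unadjusted limma p under 0.05 was reached by 3, all above 0 (Cst9, Cst12 and Aard). Cst9 was at 110 and 112 FPKM in the hemicastrated mice against 62.8 and 76.7 FPKM in the controls. Cst12 was at 107 and 109 FPKM in the hemicastrated mice against 56.3 and 74.5 FPKM in the controls. Summed FPKM of 8 Leydig cell genes was 1972 and 1863 in the hemicastrated mice against 1699 and 1594 in the controls. Most of it came from Insl3, at 1609 and 1484 FPKM in the hemicastrated mice against 1272 and 1232 FPKM in the controls. Of the 8 genes 3 lay above 0 and 5 below, with a median of -0.007. An unadjusted limma p under 0.05 was reached by 3, Insl3 and Star above 0 and Lhcgr below. Summed FPKM of 6 macrophage genes was 36.8 and 33.8 in the hemicastrated mice against 45.8 and 42.8 in the controls. Of these 5 were tested, 1 with an unadjusted limma p under 0.05. The sums of 5 endothelial genes overlapped between the groups. Most of the sum came from Egfl7, the only one tested. It was at 5.49 and 5.07 FPKM in the hemicastrated mice against 6.07 and 3.72 FPKM in the controls. The others (Pecam1, Cdh5, Tek and Kdr) were under the filter, and each was lower in both hemicastrated libraries than in both controls. The part of these cell types in the members' values was not tested. In a bulk sample, fewer germ cells and less RNA per germ cell cannot be told apart.

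As a group the members held 0.569% and 0.600% of all summed FPKM in the hemicastrated libraries and 0.544% and 0.576% in the controls. The 5 genes with the highest means, Mael, Gtsf1, Gtsf1l, Ddx4 and Tdrd6, made up 73.5% and 76.0% of that sum in the hemicastrated mice and 73.5% and 74.6% in the controls. Means over the 4 libraries reached 10 FPKM in 23 of the 32 genes, against 22.1% of the whole table, and 8 members lay above the 90th percentile of the table. No member lies on the X or Y chromosome. Gtsf1 and Gtsf2 are neighbours on chromosome 15, 8486 bases apart, and Ago3 and Ago4 lie 59984 bases apart on chromosome 4.

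Among the highest members, the bases before the start of transcription differ in composition, and a few are shown for that reason. The 100 bases before the RefSeq start (GRCm38.p6, gene strand, 5′ to 3′) are given for Mael, Gtsf1l and Gtsf2 as high members, for Tdrd12 and Tdrd7 as members with a hexamer of the MYB family, and for Dicer1 as a low member of the microRNA pathway. A-MYB, the product of Mybl1, drives many piRNA pathway genes in mouse spermatocytes. Capitals mark a MYB hexamer on either strand: TAACGG was searched for, as was TAACTG, and likewise CAACGG along with CAACTG.
Mael (chr1:166238745-166238844, minus strand): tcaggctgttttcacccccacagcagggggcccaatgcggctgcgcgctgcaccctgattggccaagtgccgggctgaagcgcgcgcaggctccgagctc
Gtsf1l (chr2:163089602-163089701, minus strand): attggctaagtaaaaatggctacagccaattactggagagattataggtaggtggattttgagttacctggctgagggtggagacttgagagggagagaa
Gtsf2 (chr15:103448460-103448559, minus strand): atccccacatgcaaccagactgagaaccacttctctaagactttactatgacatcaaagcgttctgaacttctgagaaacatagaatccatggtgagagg
Tdrd12 (chr7:35537745-35537844, minus strand): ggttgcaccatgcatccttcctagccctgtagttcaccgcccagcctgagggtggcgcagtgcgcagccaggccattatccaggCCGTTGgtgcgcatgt
Tdrd7 (chr4:45965235-45965334, plus strand): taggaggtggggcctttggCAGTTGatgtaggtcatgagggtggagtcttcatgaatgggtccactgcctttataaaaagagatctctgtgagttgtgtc
Dicer1 (chr12:104751953-104752052, minus strand): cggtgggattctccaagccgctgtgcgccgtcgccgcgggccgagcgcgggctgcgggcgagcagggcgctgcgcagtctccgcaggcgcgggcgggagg

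These stretches hold 8 CpG dinucleotides in Mael, 0 in Gtsf1l, 1 in Gtsf2 and 5 in Tdrd12. Dicer1 has 18, and this start of Tdrd7 has 0, while another start of Tdrd7 has 12. The stretches are a choice among those with few bases in GENCODE exons. Those of the high members Gtsf1 and Ddx4 hold more exon bases and are not shown, and Tdrd6 had no matched RefSeq window. GENCODE places Gtsf1l at 163087034 to 163087855 on chromosome 2, so its RefSeq stretch does not adjoin the gene there. The hexamers were searched in the 250 bases before each RefSeq start, where no match in a member overlaps another. RefSeq windows were matched for 27 members, and 8 of these, or 29.6%, held at least 1 hexamer in a window, against 26.3% of all genes with a window and 25.8% of the tested genes that have one. The share of the members is near both backgrounds. The 8 genes were Fkbp6, Mov10l1, Piwil1, Pld6, Tdrd12, Tdrd5, Tdrd7 and Tdrkh. A letter match is a description and says nothing of binding. Mybl1 itself was at 8.18 and 7.69 FPKM in the hemicastrated mice and 6.74 and 9.26 FPKM in the controls, with overlapping groups.

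Of the PIWI proteins, Piwil1 (MIWI, chromosome 5, 128702524 to 128755474, GRCm38), which binds pachytene piRNAs, was at 63.5 and 56.5 FPKM in the hemicastrated mice and at 61.4 and 62.2 FPKM in the controls. The control values lie between the hemicastrated ones. The log2 fold change was -0.04 (SE 0.09, 95% interval -0.27 to 0.18). Piwil2 (MILI, chromosome 14, 70372477 to 70429383), which acts in fetal and postnatal germ cells, was at 20.2 and 22.04 FPKM in the hemicastrated mice and at 25.1 and 22.1 FPKM in the controls. Both hemicastrated values were below both controls, by 0.109 FPKM between hemicastrated 2 and control 2. Its log2 fold change was -0.15 (SE 0.11, 95% interval -0.42 to 0.11, limma adjusted p = 0.694). Piwil4 (MIWI2), which in mouse directs DNA methylation of transposons in fetal germ cells, was at 0.125 and 0.160 FPKM in the hemicastrated mice and at 0.112 and 0.188 FPKM in the controls, and an antisense gene, Gm10706, overlaps its exons. It is under the filter, and its groups overlap.

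The order within the PIWI family was the same in each library. Piwil1 gave 75.7% and 71.8% of the family's summed FPKM in the hemicastrated mice and 70.9% and 73.6% in the controls. Piwil2 gave 24.1% and 28.0% in the hemicastrated mice and 28.996% and 26.2% in the controls, and Piwil4 gave 0.129% to 0.223% over the 4 libraries. The shares of the groups overlap for each of these genes.

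**Figure D2:**
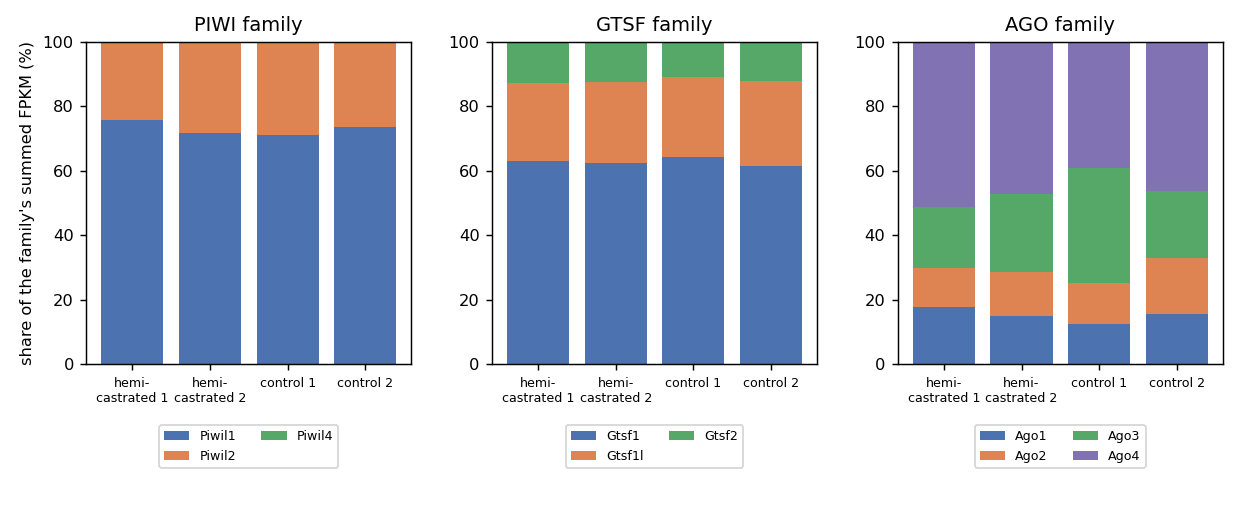
Share of each family's summed FPKM (%) held by each gene, in the 2 hemicastrated and the 2 control libraries, for the PIWI, GTSF and AGO genes. Piwil1 and Gtsf1 lead their families in each library, Piwil4 is too small to see, and the share of Ago3 is highest in control 1, at 35.8%.

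The genes of piRNA processing and trimming had means over the 4 libraries from 2.28 FPKM for Exd1 to 17.9 FPKM for Gpat2. Pld6, the mitochondrial endonuclease that cuts precursors (zucchini in fly), was at 16.7 and 15.8 FPKM in the hemicastrated mice and at 18.1 and 16.2 FPKM in the controls. The RNA helicase Mov10l1, which feeds precursors to that cut, was at 17.3 and 17.4 FPKM in the hemicastrated mice and at 19.7 and 16.2 FPKM in the controls. For both genes the groups overlap.

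The trimmer Pnldc1, an exonuclease that shortens the 3′ end of the piRNA, was lower than these, at 3.34 and 3.25 FPKM in the hemicastrated mice and 2.93 and 3.96 FPKM in the controls, with an antisense gene, AL589878.1, over its exons. Henmt1, which methylates the trimmed 3′ end, was at 10.4 and 12.9 FPKM in the hemicastrated mice and 12.1 and 11.9 FPKM in the controls. Its antisense neighbour Gm9857 was at 2.04 to 3.58 FPKM over the 4 libraries. In both genes 1 group spanned the values of the other: the controls for Pnldc1 and the hemicastrated mice for Henmt1. The mitochondrial acyltransferase-like protein Gpat2, a partner of MILI, was at 19.3 and 16.0 FPKM in the hemicastrated mice and 18.8 and 17.4 FPKM in the controls. Exd1, a partner of TDRD12 in piRNA amplification, was at 2.22 and 2.47 FPKM in the hemicastrated mice and 1.93 and 2.50 FPKM in the controls.

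Asz1 (GASZ, chromosome 6, 18050964 to 18109061), the scaffold between mitochondria and germ granules, had the most positive difference of this role. It was at 10.4 and 11.3 FPKM in the hemicastrated mice and at 8.07 and 10.7 FPKM in the controls. Control 1 was lowest, and control 2 lay between the hemicastrated mice. The log2 fold change was 0.20 (SE 0.15, 95% interval -0.16 to 0.57, limma adjusted p = 0.707), and it was 0.02 without control 1 and 0.38 without control 2. Of the 7 genes of this role 0 were called, 2 lay above 0 and 5 below, and the median log2 fold change was -0.04, with Henmt1 and Pnldc1 above 0 under quantile normalization.

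The Tudor domain genes were the largest role, with 10 genes, of which 10 were tested and 0 called. Tdrd6, a scaffold of the chromatoid body, was at 107 and 103 FPKM in the hemicastrated mice and at 102.6 and 104.7 FPKM in the controls. Over the 4 libraries it varied by 1.05-fold, the least of the 32 members. Tdrd7, which acts in remodelling of these granules, was at 62.6 and 57.1 FPKM in the hemicastrated mice and 58.8 and 54.1 FPKM in the controls. Its values overlap between the groups.

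Tdrd1 (chromosome 19, 56826209 to 56870012), a partner of MILI in the granules between mitochondria, was at 23.2 and 26.9 FPKM in the hemicastrated mice and 29.3 and 26.3 FPKM in the controls. The lowest value was hemicastrated 1 and the highest control 1, and the others crossed. The log2 fold change was -0.15 (SE 0.11, 95% interval -0.43 to 0.13, limma adjusted p = 0.717). Tdrd12 (chromosome 7, 35469098 to 35537745), required in mouse for piRNAs bound to MIWI2, was at 24.4 and 27.3 FPKM in the hemicastrated mice and 21.03 and 25.05 FPKM in the controls. Again the middle values crossed, and the log2 fold change was 0.16 (SE 0.12, 95% interval -0.13 to 0.45, limma adjusted p = 0.707).

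Tdrd5, which is needed for chromatoid body assembly and binds piRNA precursors, was at 19.2 and 19.0 FPKM in the hemicastrated mice and at 22.3 and 19.7 FPKM in the controls. Both hemicastrated values were below both controls (log2 fold change -0.13, SE 0.10, limma adjusted p = 0.733), and an antisense gene, 4930518J20Rik, overlaps its exons. Tdrd9, a helicase of the MIWI2 branch, was at 19.7 and 19.9 FPKM in the hemicastrated mice and 21.3 and 19.2 FPKM in the controls. Rnf17, a component of another germ cell granule, was at 23.3 and 19.0 FPKM in the hemicastrated mice and 18.6 and 19.8 FPKM in the controls, and Stk31, a Tudor protein with a kinase-like domain, was at 21.3 and 16.4 FPKM in the hemicastrated mice and 18.2 and 19.4 FPKM in the controls. In Rnf17 and Stk31 hemicastrated 1 was the highest library, and hemicastrated 2 was lowest for Stk31 and between the controls for Rnf17.

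Tdrkh (TDRD2), which holds PIWI proteins at mitochondria during trimming, was at 23.7 and 21.4 FPKM in the hemicastrated mice and 22.2 and 22.1 FPKM in the controls. Its exons overlap those of Oaz3 on the other strand, a spermatid gene at 1453 and 1601 FPKM in the hemicastrated mice and 1681 and 1621 FPKM in the controls, and no strand-marking step is described, so the level of Tdrkh is uncertain. Tdrd3, a Tudor protein also found outside the germ line, was the lowest of the role, at 10.7 and 10.2 FPKM in the hemicastrated mice and 10.3 and 12.03 FPKM in the controls. Over the 10 Tudor genes the log2 fold changes ran from -0.15 to 0.16, with 5 above and 5 below 0 and a median of 0.01. Quantile normalization turned the sign of Tdrd6, Tdrd9 and Stk31.

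The gametocyte-specific factors, small zinc finger proteins of which GTSF1 is a cofactor that speeds RNA cleavage by PIWI proteins, were among the highest members. Gtsf1 (chromosome 15, 103402405 to 103430470) was at 461 and 499 FPKM in the hemicastrated mice and at 424 and 465 FPKM in the controls, and ranked 59th of all genes in the table by its mean. Control 1 was lowest and hemicastrated 2 highest, with the other libraries crossed. The log2 fold change was 0.11 (SE 0.09, 95% interval -0.10 to 0.33, limma adjusted p = 0.727). Its paralogue Gtsf1l was at 177 and 201 FPKM in the hemicastrated mice and 165 and 199 FPKM in the controls, with overlapping groups, and 3.62% of the 50-base stretches of its longest transcript also occur in transcripts of Zfp850.

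Gtsf2 (chromosome 15, 103438957 to 103448469) had the smallest p of the 29 members. It was at 95.2 and 100.5 FPKM in the hemicastrated mice and at 72.3 and 92.2 FPKM in the controls, or 97.9 ± 3.8 against 82.2 ± 14.1 FPKM (SD, n = 2 each). The groups do not overlap, and the distance between the controls was larger than that from control 2 to the nearer hemicastrated library. The log2 fold change was 0.26 (SE 0.13, 95% interval -0.05 to 0.57, limma adjusted p = 0.560). It was 0.08 without control 1 and 0.43 without control 2 (limma adjusted p of 0.372). All 3 genes of the family lay above 0 (median log2 fold change 0.11), also under both other scalings, but Gtsf1l was at -0.04 without hemicastrated 2 and -0.08 without control 1. Gtsf2 gave 12.99% and 12.6% of the family's summed FPKM in the hemicastrated mice and 10.9% and 12.2% in the controls, and Gtsf1 gave 62.9% and 62.3% in the hemicastrated mice against 64.1% and 61.5% in the controls.

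**Figure D3:**
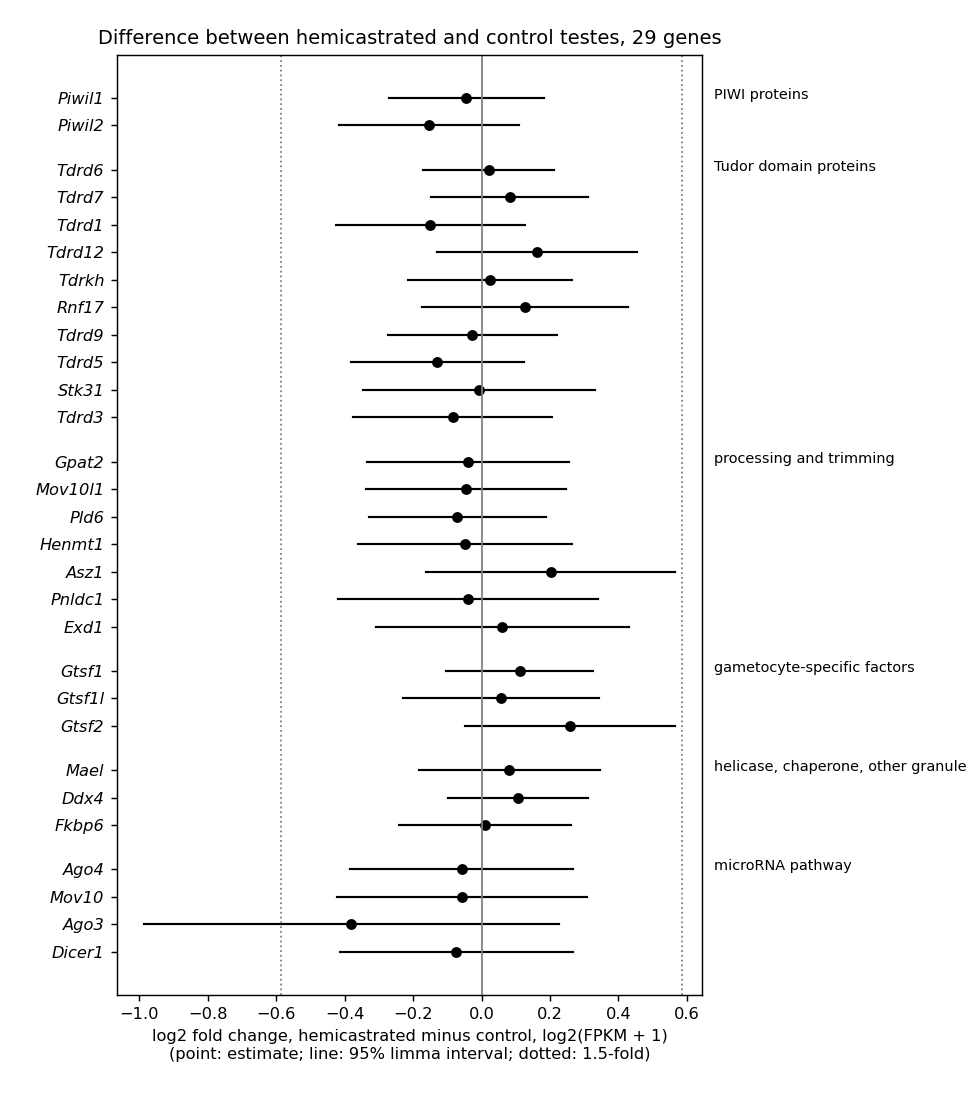
Log2 fold change of the 29 tested genes, from hemicastrated minus control log2(FPKM + 1), with the 95% limma interval from 2 libraries per group; dotted lines mark 1.5-fold. All 29 intervals cross 0, and that of Ago3, from -0.99 to 0.23, is the one that passes a dotted line.

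Mael (maelstrom, chromosome 1, 166201201 to 166238747), needed for transposon silencing and for piRNA precursors in the mouse testis, had the highest mean of the members and ranked 38th in the table. It was at 572 and 699 FPKM in the hemicastrated mice and at 593 and 603 FPKM in the controls. The controls lie between the hemicastrated mice, and the log2 fold change of 0.08 was -0.06 without hemicastrated 2 and 0.22 without hemicastrated 1. Ddx4 (mouse vasa homologue, chromosome 13, 112598333 to 112652475), the helicase that marks germ cells, was at 116 and 107 FPKM in the hemicastrated mice and 101.6 and 105.5 FPKM in the controls. The groups do not overlap, and the distance between hemicastrated 2 and control 2 was smaller than the distance between libraries of either group. Its log2 fold change was 0.11 (SE 0.08, 95% interval -0.10 to 0.31, limma adjusted p = 0.731). Fkbp6, a co-chaperone of PIWI loading, was at 24.1 and 24.98 FPKM in the hemicastrated mice and 26.0 and 22.8 FPKM in the controls. Nanos1, an RNA-binding protein of the Nanos family, was at 0.374 and 0.0880 FPKM in the hemicastrated mice and 0.306 and 0.308 FPKM in the controls, the largest spread between libraries of any member (4.25-fold).

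The microRNA pathway genes were the lowest role. Their 5 summed FPKM came to 6.69 and 8.13 in the hemicastrated mice and 9.54 and 7.88 in the controls. Those of the 3 PIWI genes came to 83.9 and 78.7 in the hemicastrated mice and 86.6 and 84.6 in the controls. Dicer1, the endonuclease that releases microRNAs, was at 1.09 and 1.04 FPKM in the hemicastrated mice and 1.24 and 1.11 FPKM in the controls. The groups do not overlap, with a difference between hemicastrated 1 and control 2 of 0.0156 FPKM, and the log2 fold change was -0.07 (SE 0.14, limma adjusted p = 0.899). Ago4 led the 4 Argonaute genes, which bind microRNAs, at 2.29 and 2.58 FPKM in the hemicastrated mice and 2.63 and 2.52 FPKM in the controls.

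Ago3 (chromosome 4, 126331704 to 126429556) had the most negative log2 fold change of the members. It was at 0.852 and 1.32 FPKM in the hemicastrated mice and at 2.40 and 1.14 FPKM in the controls. Control 1 stood above the other libraries, and control 2 lay between the hemicastrated mice. The log2 fold change was -0.38 (SE 0.25, 95% interval -0.99 to 0.23, limma adjusted p = 0.670). It was -0.05 without control 1 and -0.72 without control 2. Ago2, the Argonaute that cleaves targets, was under the filter, at 0.543 and 0.751 FPKM in the hemicastrated mice and 0.848 and 0.941 FPKM in the controls. Its groups do not overlap, its difference between group means was above both within-group differences, and the highly expressed Chrac1 (118 to 139 FPKM) overlaps it on the other strand. Mov10, the somatic relative of Mov10l1, was at 1.91 and 2.44 FPKM in the hemicastrated mice and 2.42 and 2.17 FPKM in the controls, and Mov10l1 was 7.13 to 9.04 times as high in the same library. Transcripts of Gm7357 share 8.15% of the 50-base stretches of Mov10. All 4 tested genes of this role lay below 0 (median log2 fold change -0.07), but Dicer1, Ago4 and Mov10 were above 0 under quantile normalization.

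Genes around the pathway were read from 3 further lists. Of 15 tested partners of the piRNA pathway (transcription factors, chaperones, silencing factors and arginine methylation enzymes) 0 were called, 1 had an unadjusted p under 0.05, and the median log2 fold change was 0.01. Adad1, a double-stranded RNA-binding protein of spermatids, was at 132 and 136 FPKM in the hemicastrated mice and at 108 and 106 FPKM in the controls (log2 fold change 0.32, SE 0.08, limma adjusted p = 0.191). Ptbp2, a splicing regulator, was at 55.1 and 55.6 FPKM in the hemicastrated mice against 48.1 and 48.4 FPKM in the controls, and Tex15, a cofactor of MIWI2 in mouse, at 6.68 and 5.31 FPKM in the hemicastrated mice against 4.505 and 4.96 FPKM in the controls. These libraries do not overlap between the groups, and none passed the threshold (limma adjusted p of 0.191 to 0.583). Over this list the groups did not overlap in 6 of 15 tested genes, against 41.2% of all tested genes.

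In the list of other chromatoid body and RNA decay genes, 0 of 24 were called. An unadjusted limma p under 0.05 was reached by 3, against 10.5% of all tested genes. Of the 24 genes 6 lay above 0 and 18 below (median log2 fold change -0.05), and 43.4% of all tested genes lay above 0. The kinesin Kif17, found in the chromatoid body, was at 48.1 and 43.7 FPKM in the hemicastrated mice and at 60.5 and 58.4 FPKM in the controls (log2 fold change -0.37, SE 0.09, limma adjusted p = 0.204). The RNA-binding protein Hnrnpk was at 47.6 and 51.4 FPKM in the hemicastrated mice against 63.5 and 55.9 FPKM in the controls, and the decapping scaffold Edc4 at 13.8 and 14.7 FPKM in the hemicastrated mice against 17.8 and 16.9 FPKM in the controls, with a limma adjusted p of 0.434 and 0.437. For these 3 genes both hemicastrated libraries were below both controls. Over the list the groups did not overlap in 11 of 24 genes, 10 of them lower and 1 higher, against 41.2% of all tested genes. Of all 11343 tested genes, 2818 were lower without overlap and 1852 higher. Of 14 tested genes of the microRNA machinery 0 were called by limma, 0 had an unadjusted p under 0.05, and the median was -0.07. Of these 3 lay above 0 and 11 below, and the groups did not overlap in 6, 1 higher and 5 lower. Xpo5, the exporter of microRNA precursors, was at 15.8 and 16.2 FPKM in the hemicastrated mice and 17.6 and 18.6 FPKM in the controls, the double-stranded RNA-binding protein Prkra, a partner of Dicer, at 9.19 and 9.53 FPKM in the hemicastrated mice against 8.65 and 7.78 FPKM in the controls, and Zc3h7a at 6.37 and 5.29 FPKM in the hemicastrated mice against 5.63 and 3.65 FPKM in the controls.

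**Figure D4:**
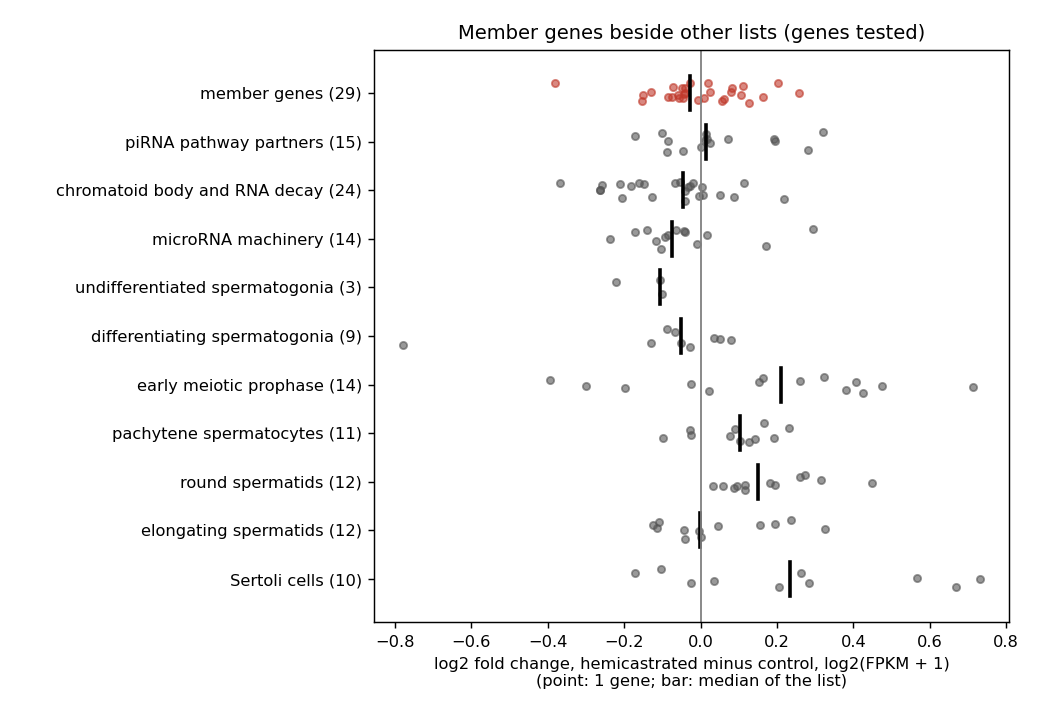
Log2 fold change of each tested gene, hemicastrated minus control, for the 29 member genes (red) and for other lists (grey), with the number of genes tested in brackets and a bar at the median. The members lie between -0.38 and 0.26 with a median of -0.03, and the round spermatid genes have a median of 0.15.

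Germ cell markers of the stages that express the members were set beside them. The 14 early meiotic prophase genes had a median log2 fold change of 0.21 and the 12 round spermatid genes one of 0.15, with 0 called in each by limma. An unadjusted p under 0.05 was reached by 7 early meiotic genes, 6 above 0 and Spo11 below at -0.39, and by 5 round spermatid genes, all above 0, against 10.5% of all tested genes. Of the early meiotic genes 10 lay above 0 and 4 below, and of the round spermatid genes 12 of 12 lay above 0, against 43.4% of all tested genes. The groups did not overlap in 10 of the 14 early meiotic genes, 8 higher and 2 lower. They did not overlap in 9 of the 12 round spermatid genes, all higher, against 41.2% of all tested genes. The medians were 0.10 for 11 pachytene spermatocyte genes, -0.001 for 12 elongating spermatid genes, -0.05 for 9 genes of differentiating spermatogonia and -0.10 for the 3 tested of 10 genes of undifferentiated spermatogonia. The summed FPKM of the early meiotic list was 704 and 630 in the hemicastrated mice and 573 and 575 in the controls, and that of the round spermatid list was 1170 and 1200 in the hemicastrated mice against 1058 and 1038 in the controls. The members' median lies below those of these 2 lists, and the difference between lists was not tested.

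The spread between libraries of a group was similar for the members and for all tested genes. The median absolute difference between the hemicastrated libraries was 0.12 on the log2 scale for the members and 0.14 for all tested genes, and between the controls it was 0.15 and 0.13. The median absolute difference of the group means was 0.07 for the members and 0.12 for all tested genes. No library was highest throughout: 9 members were highest in hemicastrated 1, 8 in hemicastrated 2, 10 in control 1 and 5 in control 2.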

How the data were processed

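Poly(A) RNA of testes was sequenced as 4 libraries on an Illumina instrument with paired ends, per the labels' protocols, which describe no strand-marking step. Values were read as RNA, as in that protocol, although the molecule label says genomic DNA. TopHat2 (version 2.0.11), Cufflinks (version 2.2.1) and GRCm38 are named, without roles, per the submitters' processing notes. The annotation used was not given in the sources used here. Per the file headers, the authors deposited FPKM. They hold no counts, so depth is unknown and no counting interval can be given. A value of 0 may stand for a failed estimate.

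Symbols (21806 of 22073 identifiers) and positions came from GENCODE M21, which may differ from the authors' annotation, and promoter bases from RefSeq. Genes whose mean reached 1 FPKM were compared on log2(FPKM + 1) with limma 3.58.1 in R 4.3.3 (variance trend, no covariate, two-sided, Benjamini-Hochberg over all tested genes, threshold 0.05). An exact permutation test of 1 gene cannot give a p under 0.333 here. The fit was tested on simulated data. P-values and intervals set the group difference against the spread within the groups of these 4 libraries. For that, limma drew the variance of each gene toward a trend over all tested genes. Shared sequence was counted as 50-base stretches. All 32 members are named, with full statistics for the 8 smallest p, and from 3 further lists up to 3 genes by smallest p. The members and lists were chosen with earlier results of these data known. Alternatives were another pseudocount, 2 other filters, quantile and TPM scaling, robust hyperparameters, a replicate block and leaving out each library.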

Additional observations from a re-analysis of the deposited data

How the results depend on the processing

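No member was called under any of the 11 alternatives to the limma fit, and the smallest adjusted p of a member over them was 0.372 (Gtsf2 without control 2). With the replicate number as a block, an unadjusted limma p under 0.05 was reached by 1 of 29 members, against 1264 of all 11343 tested genes. The median log2 fold change of the members lay between -0.04 and 0.03. The libraries share only a number: same-numbered libraries had a correlation of deviations of 0.0137, and the block gave 30 higher genes in place of 12. Over all genes, the count of higher genes was 3 with no filter and 7 with the filter at 5 FPKM, and ran from 0 to 29 when each library was left out, while the count of lower genes was 63 with that filter, fewer genes being tested, and ran from 78 to 162 when each was left out. Signs of members near 0 turned, with no call involved. Under quantile normalization the log2 fold change was 0.049 for Dicer1, 0.035 for Ago4, 0.036 for Mov10, 0.00016 for Henmt1, 0.00067 for Tdrd9, -0.0015 for Tdrd6, 0.047 for Pnldc1 and 0.019 for Stk31, and in TPM it was -8.95e-06 for Fkbp6. With each library left out, it ran from -0.12 to 0.0017 for Ago4, -0.069 to 0.19 for Exd1, -0.079 to 0.10 for Fkbp6, -0.17 to 0.086 for Gpat2, -0.077 to 0.19 for Gtsf1l, -0.19 to 0.093 for Henmt1, -0.063 to 0.22 for Mael, -0.18 to 0.064 for Mov10, -0.18 to 0.087 for Mov10l1, -0.13 to 0.039 for Piwil1, -0.15 to 0.0044 for Pld6, -0.21 to 0.13 for Pnldc1, -0.012 to 0.27 for Rnf17, -0.19 to 0.17 for Stk31, -0.19 to 0.019 for Tdrd3, -0.0081 to 0.0496 for Tdrd6, -0.10 to 0.047 for Tdrd9 and -0.044 to 0.093 for Tdrkh. The cause of these turns was not tested.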
